A study of Homo sapiens with 16 samples.

Results

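The regions described here are the stretches of chromatin of U87 cells that were called open after treatment with AsiDNA and belinostat together and in no other condition. Peaks of the 4 deposited lists on chromosomes 1 to 22 and X were merged wherever they overlapped by at least 1 bp. A merged region was kept when it held a peak of the combination list and of no other list. This left 8055 of 183659 merged regions (4.39%), each with 1 peak. The regions were thus selected on a peak in the combination list and on the lack of one in the other lists, so their peak strength and that absence are given as a description and support nothing.

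U87 is an established human glioblastoma cell line, and open chromatin was mapped in it by NicE-seq. In this assay a nicking enzyme cuts exposed DNA in fixed nuclei, a polymerase places biotinylated nucleotides at the nicks, and the labelled fragments are captured and sequenced. The 16 libraries form 4 groups of 4, namely the combination, AsiDNA with the solvent DMSO, belinostat without AsiDNA, and control cells with DMSO (vehicle). Belinostat was given at 1 µM for 24 h, and the labels give no AsiDNA dose. The protocol text speaks of MTU87 and LTAU87 cells where the sample fields give U87, so how the AsiDNA groups were exposed is not given in the sources used here. A single peak list was made for each group, which leaves values without a spread between replicates and conditions without a test. The intervals in brackets are 95% intervals (Wilson for shares, exact Poisson for reads) that cover counting error only. More cells with a site open and a wider opening in each cell cannot be told apart in such bulk libraries.

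Open chromatin marks promoters, where RNA polymerase starts, and distant enhancers, which are bound by transcription factors and lie in introns or between genes. AsiDNA is a short double-stranded DNA that imitates a broken DNA end and engages DNA-dependent protein kinase, away from real breaks. Belinostat inhibits histone deacetylases, the enzymes that remove acetyl groups from histones, and histone acetylation accompanies open chromatin.

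Few of the regions lay on promoters, and the promoters below show what such a region covered. They belong to the 2 genes, among the 12 protein-coding genes with the strongest gene end open in the combination alone, whose region covered the transcript start itself. RefSeq promoters (GRCh38.p14, the build family of the files) run from 250 bases before to 50 after the transcript start, and capitals mark the bases inside the combination-only region. LOC105377864, a predicted protein-coding gene, has its window at chr6:77403354-77403653 on the plus strand, of which 159 bases were covered. CDC14A, a phosphatase of the cell cycle, has its window at chr1:100344751-100345050 on the plus strand, of which 187 bases were covered.
LOC105377864: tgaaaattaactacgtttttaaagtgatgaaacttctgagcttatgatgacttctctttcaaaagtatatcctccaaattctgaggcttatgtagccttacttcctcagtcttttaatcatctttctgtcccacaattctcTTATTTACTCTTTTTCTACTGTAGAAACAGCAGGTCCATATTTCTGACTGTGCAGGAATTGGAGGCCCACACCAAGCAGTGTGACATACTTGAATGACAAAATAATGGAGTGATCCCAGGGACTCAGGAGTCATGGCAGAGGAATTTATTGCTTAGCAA
CDC14A: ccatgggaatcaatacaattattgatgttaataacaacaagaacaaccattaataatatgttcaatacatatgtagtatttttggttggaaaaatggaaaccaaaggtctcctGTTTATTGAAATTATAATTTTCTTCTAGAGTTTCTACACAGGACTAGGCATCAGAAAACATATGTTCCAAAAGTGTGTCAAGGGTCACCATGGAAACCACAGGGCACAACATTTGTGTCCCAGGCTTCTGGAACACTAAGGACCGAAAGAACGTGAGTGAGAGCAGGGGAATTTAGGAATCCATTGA

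Both sequences are poor in G and C (38.3% and 37.0%), with 1 and 2 CpG dinucleotides. The LOC105377864 window held the letters CCAAT, read on either strand, and the CDC14A window held none of the motifs searched. In CHRNA1, the muscle acetylcholine receptor subunit, the region covered just 9 bases of the promoter.

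A second set of sequences is shown for a motif that all these promoters together held more often than promoters at large, which did not hold among the stronger regions, as given further on. It is TGANTCA, a pattern that holds the binding letters of AP-1 and allows any base in the middle. The pattern reads the same on both strands. The letters are in capitals with up to 11 bases on each side, on the strand of the gene, for 5 of the 6 protein-coding genes in which they lay inside the combination-only region. CCL24 encodes a chemokine (chr7:75823379-75823385, minus strand). LPP encodes an adhesion-site protein (chr3:188212581-188212587, plus) and DCDC1 a doublecortin-domain protein (chr11:30992604-30992610, minus). NOS1 encodes neuronal nitric oxide synthase (chr12:117309515-117309521, minus) and DMKN the skin protein dermokine (chr19:35501974-35501980, minus).
CCL24: cccagatctggTGAGTCAgaggaaatcat
LPP: agagagggaggTGACTCAgggtttaggag
DCDC1: tgctgaggataTGACTCAgcaaatcacca
NOS1: ggtggcctaggTGACTCAgcaagtgatga
DMKN: gggagaagccgTGAGTCActgaggagcag

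The flanking letters of the 5 sites differ from one another, so they are separate sites and not copies of 1 sequence. The regions that held them were weak, with 18 reads at the summit in CCL24 (10.7 to 28.4), 17 in LPP, 11 in DCDC1, 13 in NOS1 and 14 in DMKN.

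Of 1562 microRNA hairpins of the RefSeq table, combination-only regions touched 2. The hairpin of MIR4739 lay wholly inside one (74 of 74 bases, chr17:79707176-79707249, minus strand), at a fold of 3.13 and 16 reads (9.15 to 26.0). Its mature sequence is printed with the seed, bases 2 to 8, in capitals.
hsa-miR-4739: aAGGGAGGaggagcggaggggcccu

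MIR4315-2 was touched over 3 of its 73 bases. These 2 hairpins are too few for any statement about microRNAs as a class.

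The combination-only regions were narrow and weak. Their widths ran from 198 to 1009 bp with a median of 237 bp, against medians of 236, 244 and 230 bp in the AsiDNA-only, belinostat-only and vehicle-only regions. The authors' fold enrichment over local background ran from 1.72 to 12.23 with a median of 3.46. The median region stood at percentile 10.5 of the combination list by fold, and 66 regions (0.819%) stood above percentile 50. AsiDNA-only, belinostat-only and vehicle-only regions had 2.70%, 1.26% and 1.13% above percentile 50 of their lists. A −log10 q under 2 was found in 7.66% of combination-only regions, against 3.16%, 3.58% and 5.24% in the same order of the other sets.

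The reads behind these peaks could be worked out, because the peak caller's fold and p are both functions of the reads at the summit and the local background. The reads came out whole, within a relative tolerance of 0.001, in 99.8% of combination peaks and in 100% of combination-only regions. These regions had 10 to 144 reads at the summit with a median of 17 and quartiles of 14 and 21. The medians were 17 reads in AsiDNA-only, 17 in belinostat-only and 15 in vehicle-only regions, while the whole lists had medians of 41, 37, 39 and 36 reads in the combination, AsiDNA, belinostat and vehicle. The lowest background, which grows with depth, was 3.33, 3.28, 3.31 and 3.23 reads in the same order. The 4 lists therefore differed by at most 1.03 times in this measure of depth relative to vehicle. Of the combination-only regions, 48.8% stood at that lowest background.

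**Figure D1:**
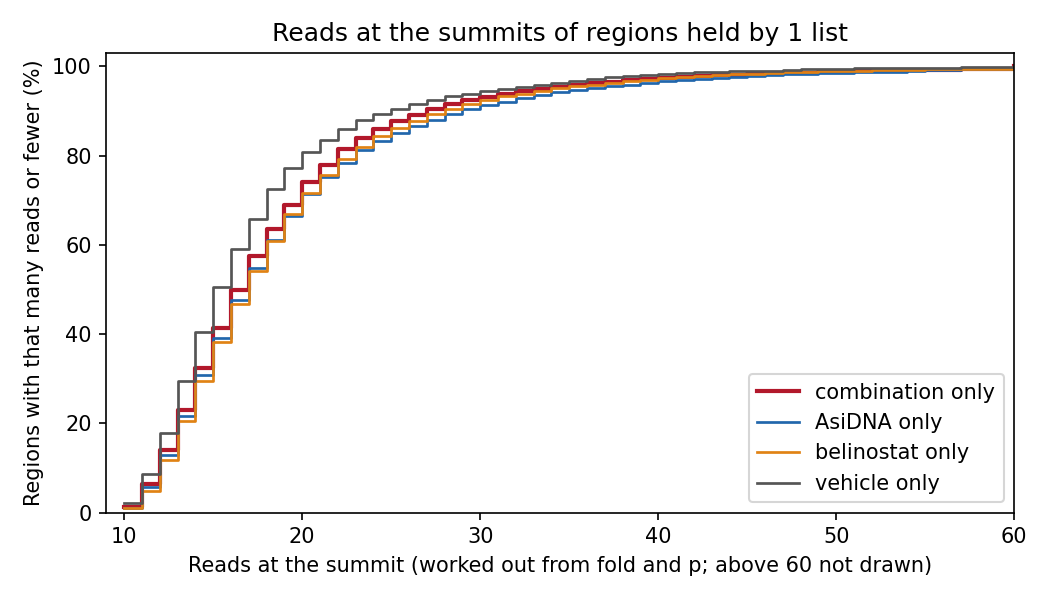
Cumulative share of regions (vertical, percent) by reads at the summit (horizontal, up to 60) for the regions held by 1 list, 1 line per list. The combination-only line lies close to those of AsiDNA-only and belinostat-only regions, all with a median of 17 reads, and the vehicle-only line lies above them with a median of 15.

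The fewest reads that would have made a peak in each of the other lists, at the region's own background scaled to that list, had a median of 10. The true background of the other lists at these sites is not known. In 1508 regions (18.7%) the summit stood within 2 reads of that number, and in 1035 (12.8%) it had at least 2 times as many. The lower bound of the reads' Poisson interval lay above it in 2468 regions, 30.6% (29.6 to 31.7), against 33.3% of AsiDNA-only, 30.3% of belinostat-only and 20.9% of vehicle-only regions. In the rest, the interval of the reads reached down to the number needed or below it.

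The regions lay among chromatin that other lists held open. The nearest region with a peak of another list was a median of 3.14 kb away, against 3.88, 3.36 and 4.10 kb for AsiDNA-only, belinostat-only and vehicle-only regions. Such a region lay within 500 bp of 1055 combination-only regions (13.1%) and within 10 kb of 6720 (83.4%), and 46 were over 100 kb from any. A peak of the AsiDNA list lay within 5 kb of 50.9% of them (49.8 to 52.0), a belinostat peak of 52.7% (51.6 to 53.7) and a vehicle peak of 48.0% (46.9 to 49.1). At the threshold, 64 regions had such a region of another list under 50 bp away, with folds of 2.26 to 4.85. Just outside it, 117 combination peaks overlapped another list by 1 to 49 bp, with folds of 2.00 to 5.08.

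Most combination-only regions, like most merged regions, were far from genes' ends. Summits lay within 1000 bp of either end of a protein-coding gene in 256 regions, 3.18% (2.82 to 3.58). The share was 4.00% (3.67 to 4.36) in AsiDNA-only, 3.73% (3.41 to 4.08) in belinostat-only and 3.49% (3.13 to 3.90) in vehicle-only regions, and 12.6% in regions open in all lists. A further 43.5% of combination-only regions lay in gene bodies and 53.3% between protein-coding genes, including 13.7% in or at another kind of gene. Over all merged regions these shares were 43.9%, 47.8% and 14.3%, and 8.33% lay at gene ends. The median distance to an end of a protein-coding gene was 33.7 kb, against 39.1 kb in AsiDNA-only, 28.8 kb in belinostat-only and 43.8 kb in vehicle-only regions. It was 29.4 kb over all merged regions.

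At transcript starts the order of the single-list sets depended on the filter. Within 1000 bp of a RefSeq start of a protein-coding gene, leaving out chromosome 8, stood 134 of 7616 combination-only regions, 1.76% (1.49 to 2.08). AsiDNA-only regions had 2.97% (2.68 to 3.29), belinostat-only 1.90% (1.67 to 2.17) and vehicle-only 2.52% (2.20 to 2.89). Regions held by the combination and belinostat and no other list had 1.87% (1.63 to 2.15), against 3.32% (2.96 to 3.71) in those held by AsiDNA and vehicle alone, and all-list regions had 11.3%. At a −log10 q of 5 or more the shares were 1.97% (1.55 to 2.49) in combination-only, 2.48% (2.11 to 2.92) in AsiDNA-only, 1.70% (1.39 to 2.09) in belinostat-only and 1.93% (1.49 to 2.51) in vehicle-only regions. With no region of another list within 500 bp they were 1.32% (1.07 to 1.62), 1.82% (1.58 to 2.10), 1.58% (1.36 to 1.84) and 1.46% (1.20 to 1.76) in the same order. With the reads' lower bound above the reads needed they were 2.13% (1.62 to 2.79), 2.46% (2.01 to 2.99), 1.76% (1.38 to 2.24) and 2.05% (1.47 to 2.83). Under these 3 filters the combination-only interval overlapped that of vehicle-only regions, and the lower share of combination-only than vehicle-only regions seen over all regions turned round at a −log10 q of 5 and in the reads filter. With all lists cut to the shortest, the shares were 2.02% (1.71 to 2.39) in combination-only and 2.85% (2.52 to 3.22) in AsiDNA-only regions. They were 1.69% (1.44 to 1.99) in belinostat-only and 2.84% (2.53 to 3.19) in vehicle-only regions. In this setting the combination-only interval lay below those of AsiDNA-only and vehicle-only regions and overlapped that of belinostat-only regions.

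**Figure D2:**
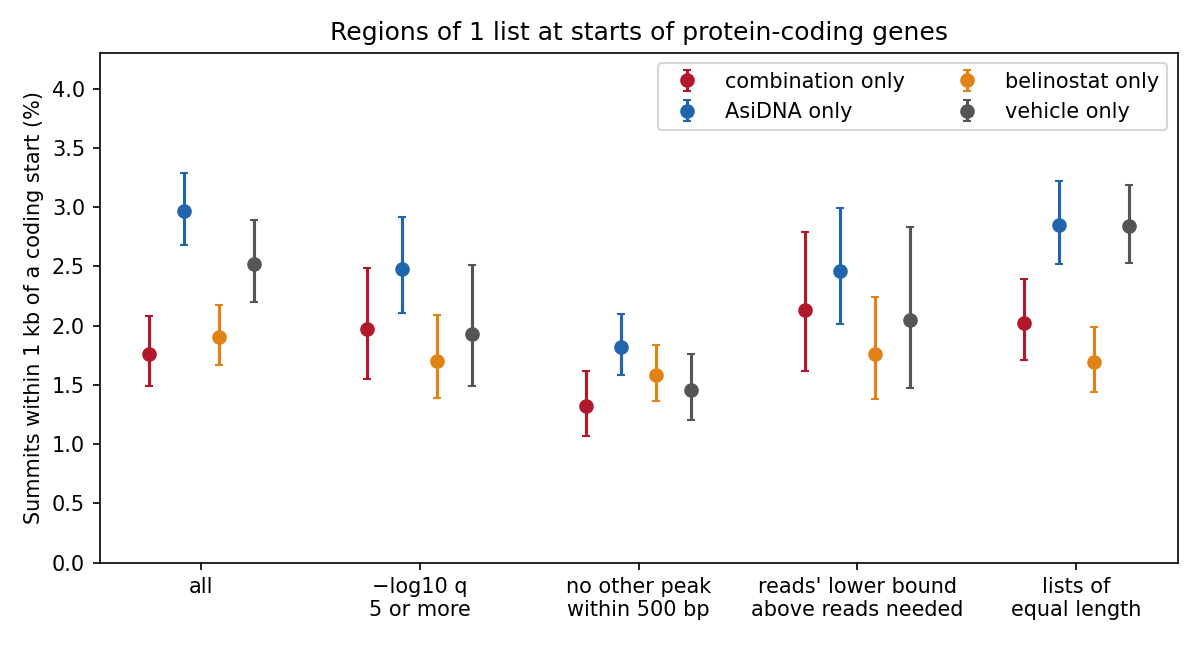
Share of the regions of each single list (points, percent, with Wilson 95% intervals) whose summit lies within 1 kb of a protein-coding start, for all such regions and after each filter. Combination-only regions stand at 1.76% against 2.97% for AsiDNA-only regions over all, and their intervals overlap at a −log10 q of 5 or more.

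Promoters in combination-only regions were of the CpG-poor kind. In RefSeq annotation, 104 windows of 102 genes, 60 of them windows of protein-coding genes, were overlapped by such a region and by no peak of another list. Their median G and C content was 52.7%, against 56.0%, 53.0% and 57.7% in AsiDNA-only, belinostat-only and vehicle-only windows, 65.3% in windows of all lists and 50.3% in windows with no peak. They held a median of 5 CpG, against 8, 4, 11, 26 and 4 in the same order. The nicking enzyme's sites, CCA, CCG and CCT on either strand, numbered a median of 34, against 38, 37, 40, 45 and 31. The part of these counts in the shares was not tested.

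The windows were searched on both strands for 5 motifs. The GC box GGGCGG, bound by Sp1, was in 25.0% of combination-only windows (17.7 to 34.1), against 41.5% of AsiDNA-only, 22.5% of belinostat-only and 40.0% of vehicle-only windows and 45.0% of all promoters. The AP-1 letters TGANTCA were in 17 windows, 16.3% (10.5 to 24.6), against 8.81% (5.57 to 13.7), 12.1% (8.08 to 17.8) and 11.3% (6.73 to 18.4) in the other single-list sets in the same order, and 7.68% of all promoters. The interval overlaps those of the other single-list sets. It excludes the share of all promoters, and so does the interval of belinostat-only windows. In the stronger combination-only regions the interval included that share. The letters were in 6 of 52 windows (11.5%, 5.40 to 23) at a −log10 q of 5 or more. With the reads' lower bound above the reads needed, they were in 4 of 39 (10.3%, 4.06 to 23.6). The middle base was T in LOC124903887, LOC105376442 and MYO18B-AS1, and C or G at the other sites. In 12 of the 17 windows the letters lay inside the region itself. Windows of protein-coding genes were 6 of the 17, though they were 60 of all 104 combination-only windows. The others with the letters belonged to long non-coding RNA genes. TATAAA was in 17.3% (11.2 to 25.7), with 11.5% of all promoters and 17.0% of windows with no peak, and CCAAT was in 36.5% against 34.6% of all promoters. TGACGTCA, the cyclic AMP response element, was in 1 window (0.962%), against 1.85% of all promoters, and its letters contain no TGANTCA match.

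**Figure D3:**
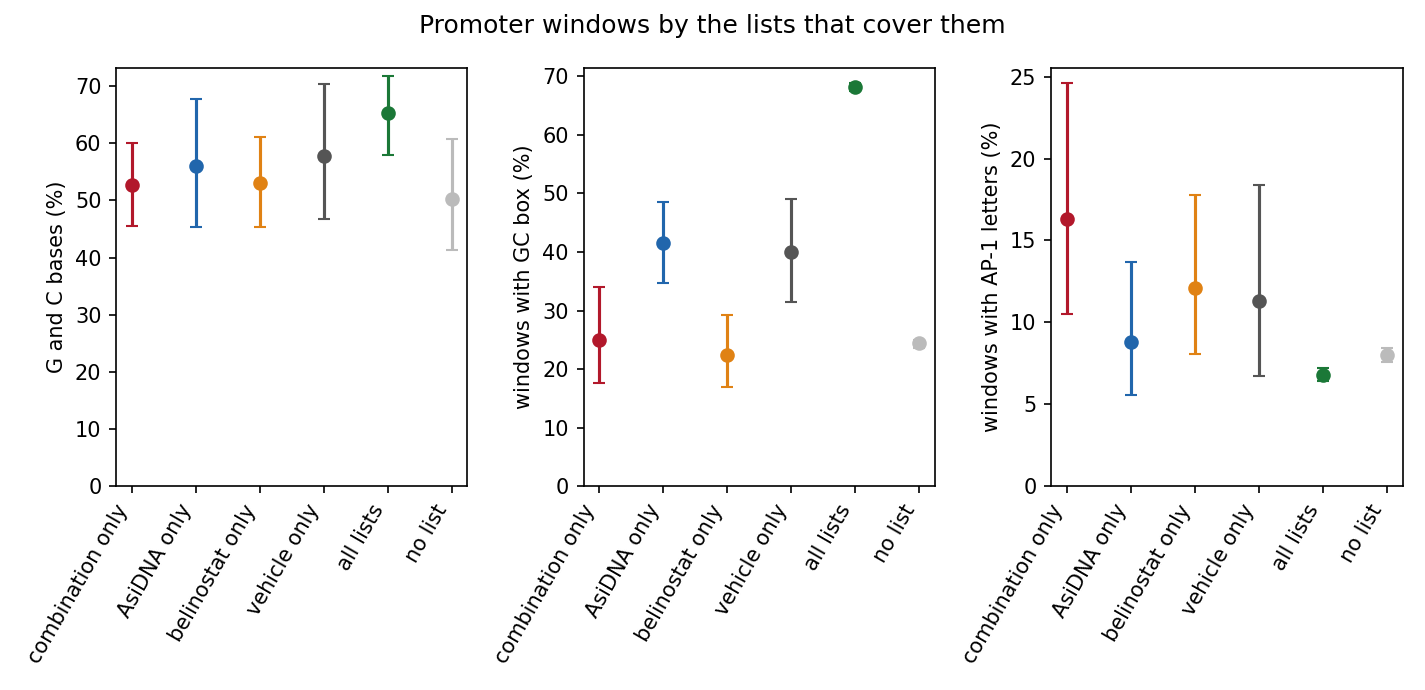
Promoter windows by the lists with a peak over them: median G and C content with quartiles (left), and the percent of windows with GGGCGG (middle) and with TGANTCA (right) with Wilson 95% intervals. Combination-only and belinostat-only windows have the GC box in 25.0% and 22.5%, below AsiDNA-only (41.5%) and vehicle-only windows (40.0%).

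Combination-only regions were spread along all chromosomes and, judged by the next region along the chromosome, clustered little. Their share of a chromosome's merged regions ran from 3.77% on chromosome 4 (3.38 to 4.20) to 5.26% on chromosome 20 (4.71 to 5.87). Chromosomes 2 (3.87%, 3.58 to 4.18) and 6 (3.84%, 3.47 to 4.24) also had intervals below the overall 4.39%, and chromosome 9 (4.96%, 4.53 to 5.43) one above it. On chromosome X the share was 5.01% (4.37 to 5.73), against 6.05% for AsiDNA-only, 6.30% for belinostat-only and 3.36% (2.85 to 3.97) for vehicle-only regions. On chromosome 13 it was 4.51% (3.99 to 5.08), against 7.38%, 6.45% and 6.54% in the same order.

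**Figure D4:**
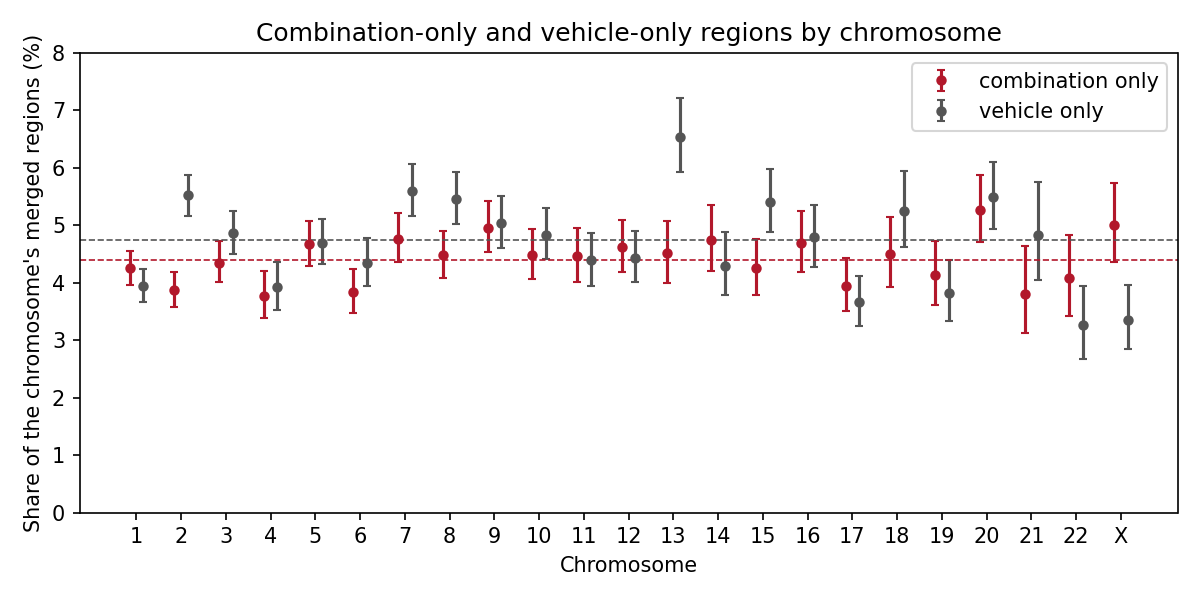
Share of each chromosome's merged regions (vertical, percent, with Wilson 95% intervals) held by the combination alone (left point) and by vehicle alone (right point), with each set's share over all chromosomes as a dashed line. Combination-only shares lie between 3.77% and 5.26%, and vehicle-only shares between 3.26% and 6.54%.

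The next region along the chromosome was also combination-only for 400 of 8054 regions, 4.97% (4.51 to 5.46). This is 1.13 times their share of all regions (1.03 to 1.25), against ratios of 1.15 for AsiDNA-only, 1.22 for belinostat-only and 1.50 (1.39 to 1.61) for vehicle-only regions. Among combination-only regions at a −log10 q of 5 or more the ratio was 0.958, and among the 2468 with reads clear of the reads needed it was 0.814. Neither was above 1, but both rest on fewer regions and have no interval. Whether they differ from 1.13 was not tested. The neighbours of combination-only regions were vehicle-only regions 1.27 times as often as those regions' share, AsiDNA-only and belinostat-only regions 1.20 times each, and all-list regions 0.897 times. Single regions numbered 7272, runs of 2 numbered 368, runs of 3 numbered 13 and runs of 4 or more numbered 2.

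The 2 runs of 4 lay 324 kb or more from the ends of protein-coding genes. One spanned 530 kb inside CNTNAP2, a neuronal adhesion gene (chr7:147567089-148097052), with folds of 5.04, 6.93, 2.77 and 2.77 and 22, 29, 11 and 11 reads. The other spanned 51.5 kb (chr18:77650910-77702384) and lay at least 373 kb from GALR1, a galanin receptor, with folds of 3.92, 3.0, 4.85 and 3.46. Its summits had 16, 12, 20 and 14 reads. Runs of 3 lay inside ADCY2, an adenylyl cyclase (chr5:7760060-7767308), and PJA2, a ubiquitin ligase (chr5:109347252-109355091), with 12 to 21 reads a region. Another pair of such runs (chr13:16137978-16144759 and chr9:63823836-63830934) lay 778 kb or more from any protein-coding gene.

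Of 2395 windows of 1 Mb with at least 20 merged regions, 227 held no combination-only region. The median share was 4.00% with quartiles of 2.31% and 6.06%, and 22 windows were above 15%. The highest share, 23.8% (16.5 to 32.9), was 24 of 101 regions at chr12:35000001-36000000, a centromeric stretch with no protein-coding gene. The same window held 5 AsiDNA-only, 6 belinostat-only and 19 vehicle-only regions, and its combination-only regions had 10 to 19 reads. How reads that match several places were treated is not given in the sources used here, and the part of repeats in this count was not tested. Next came 5 of 25 regions at chrX:69000001-70000000, 4 of 21 at chr5:104000001-105000000, 4 of 21 at chr9:119000001-120000000, 7 of 37 at chr5:7000001-8000000 and 6 of 33 at chr10:2000001-3000000. The chromosome 5 window from 7 Mb held the ADCY2 run and further regions in CFAP90, a cilium gene, and MTRR, methionine synthase reductase. These windows were ranked by share, and they leave out a large group of combination-only regions on chromosome 1. That group lay over 1 Mb from LINC02798, its nearest gene. Most of its regions stood over a background above the lowest of 3.33 reads. The part of repeats in that group was not tested either.

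The strongest region lay inside ATP9B, a phospholipid-flippase relative (chr18:79200700-79200897), with a fold of 12.23 and 52 reads (38.8 to 68.2) where 10 would have made a peak. The nearest region of another list was 43.6 kb away. The next lay inside TICRR, which helps to start DNA replication (chr15:89614231-89614502), with a fold of 9.46 and 40 reads (28.6 to 54.5). OSBPL10, a lipid-binding protein gene, followed with a fold of 8.14 and 37 reads. These 3 stood at percentiles 86.5, 73.8 and 65.5 of the combination list.

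The other 12 of the 15 strongest regions had folds of 7.39 to 8.08. Those inside genes lay in WDR35, a cilium transport gene, KCNAB2, a potassium channel subunit, WDR70, SPATA9, DCP2, the mRNA decapping enzyme, and RD3, a retinal gene. Those between genes had ARSF, ARPP21, RCBTB1, FAM135B, PCLO and B3GAT1 as the nearest protein-coding gene. Of these 12, 11 had 31 to 34 reads over a background of 3.33 to 3.52. The region near B3GAT1, 541 kb from a gene end (chr11:134953534-134953772), had 84 reads (67.0 to 104) over a background of 10.26, where 21 would have made a peak. None of the 15 lay within 1000 bp of a gene end.

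Combination-only regions lay inside 2772 of 19974 protein-coding genes (13.9%). AsiDNA-only regions lay inside 3895, belinostat-only in 3783 and vehicle-only in 2759 genes. Of the 2772 genes, 2127 held 1 such region, 460 held 2 and 185 held 3 or more. The host genes were long, with a median of 102 kb against 38.5 kb for all genes with any merged region, and had a median of 9 merged regions against 3. The share of regions that were combination-only did not grow with the number of regions in the gene: it was 4.21% in genes with 1 or 2 regions, 4.52% with 3 to 5, 4.27% with 6 to 10, 4.20% with 11 to 20, 3.99% with 21 to 50 and 4.00% above 50.

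The genes with most combination-only regions were long, from 195 to 2304 kb. PRKG1, the cyclic GMP-dependent kinase, held 10 of 172 (5.81%, 3.19 to 10.4), beside 20 AsiDNA-only, 12 belinostat-only and 18 vehicle-only regions. KAZN, a gene of cell junctions, held 9 of 110 and KCNMA1, a calcium-activated potassium channel, 7 of 83. In these 3 genes the interval of the share held the overall 4.39%. DPP6, a partner of potassium channels, held 8 of 45 (17.8%, 9.29 to 31.3), with 7 AsiDNA-only, 4 belinostat-only and 2 vehicle-only regions. MAGI1, a scaffold of tight junctions, held 8 of 64 (12.5%, 6.47 to 22.8), and MEGF11 7 of 40 (17.5%, 8.75 to 31.9).

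TSNARE1 stood out within these names, with 7 of 17 regions (41.2%, 21.6 to 64.0) beside 1 AsiDNA-only, 0 belinostat-only and 1 vehicle-only region, at folds of 2.76 to 5.31. RARB, a retinoic acid receptor, held 7 of 55 and 0 vehicle-only regions. TMEM178B held 7 of 60, CNTNAP2 6 of 34, PTPRN2, a phosphatase relative of secretory vesicles, 6 of 53, and EXOC6B, of the exocyst, 6 of 58. Among genes with at least 3, the highest shares were in CADM4, an adhesion molecule, and FEM1C, which selects proteins for degradation, each with 3 of 4. CDK17 had 3 of 5, SLC25A24, a mitochondrial carrier, 4 of 7, and ACOT11, ADD1, an adducin of the membrane skeleton, and PJA2 each had 3 of 7. These genes were picked for their counts, so their intervals are a description.

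**Figure D5:**
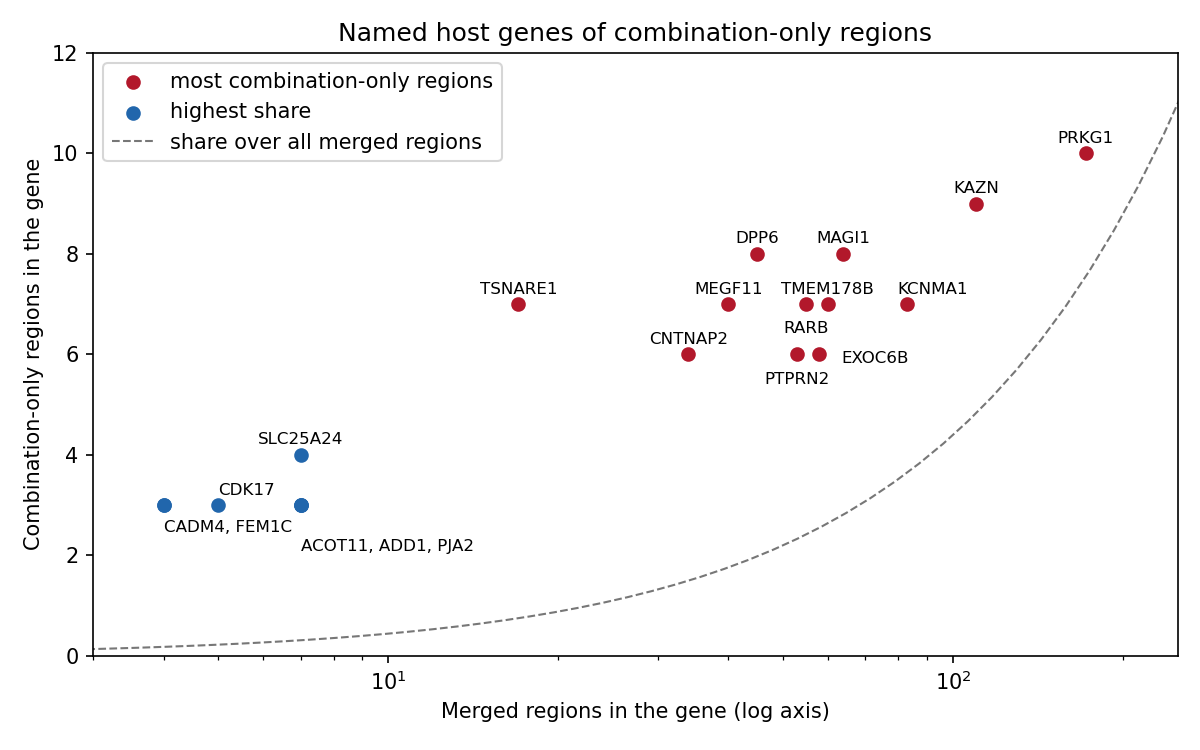
Combination-only regions (vertical) against all merged regions (horizontal, log axis) in the named host genes, with the overall share of 4.39% as a dashed line. The genes were chosen for their count or their share of such regions; all lie above the line, and PRKG1 with 10 of 172 lies nearest to it.

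At gene ends, 108 protein-coding genes (0.541%) had combination-only regions and no other region within 1000 bp of either end. Counted by peaks instead of whole merged regions there were 121. The window decided part of this: 88 genes met it at 500 bp, 125 at 2000 bp, and 46 of the 108 met it at all 3 widths. In 36 of the 108 the summit lay within 1000 bp of an annotated start, and in 23 the region reached the promoter window. The promoter table had no start for some of the 108, such as CCND2, CASKIN1 and ABCC3. Such genes could enter neither count, so both counts are lower bounds. Over the 108 genes, summits had 11 to 62 reads with a median of 17 and folds of 2.14 to 5.77.

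The strongest of them was the start of LOC105377864, printed above, with a fold of 5.77 and 24 reads (15.4 to 35.7), its summit 7 bases from the start. The summit at CDC14A, also printed above, lay 26 bases from a start, with a fold of 5.22 and 25 reads (16.2 to 36.9). CHRNA1 and PRKAG3, the muscle subunit of AMP-activated kinase, had summits 324 and 778 bases from a start, with folds of 5.31 and 5.22. In the others of the top 12 the summit lay over 1000 bp from a start in the promoter table, or the table had none for the gene. They were TMPRSS11E, a serine protease (5.54), CASKIN1, a synaptic scaffold (5.31), LGALS13, a placental galectin (5.31), PRLHR, a neuropeptide receptor (5.09), KLRD1, of natural killer cells (5.08), PPL, periplakin (5.01), LOC128966726 (4.85), and CXCR4, the chemokine receptor (4.76). As background, several of these genes are known from other tissues: CHRNA1 and PRKAG3 from muscle, PPL from skin, LGALS13 from placenta and KLRD1 from lymphocytes.

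Gene lists for the pathways touched by the drugs and by glioma biology were counted in the same way, beside the 4.39% of all regions and the 13.9% of all genes. Of 39 genes of double-strand break repair, 10 held a combination-only region, which were 14 of their 272 regions (5.15%, 3.09 to 8.45). Among them were BLM, a helicase (fold 3.92, 16 reads), and RAD51B, which held 5 of 93. PRKDC, the catalytic subunit of the DNA-dependent protein kinase that AsiDNA engages, was named after its value was seen and held a region with a fold of 2.97 and 12 reads, where 10 would have made a peak. Of 31 genes of replication origins and checkpoints, 6 held one, with 7 of 72 regions (9.72%, 4.79 to 18.7). They were TICRR, its binding partner MTBP (4.16, 17 reads), CDC6, which licenses origins (4.34, 19 reads), ORC3, CDC14A and CDC25A. The lower bound is just above the share of all regions, and the list was 1 of 9 counted. The lists were chosen with earlier results of these data known. TICRR and CDC14A are also among the strongest regions and gene ends named above. The share of this list is therefore a description and supports nothing.

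Of 35 histone deacetylases, corepressors and related enzymes, 7 held a combination-only region, 9 of 319 regions (2.82%, 1.49 to 5.27). They were led by the deacetylases HDAC8 and HDAC9 (4.85, 20 reads each) and the acetyltransferase KAT6A (4.62, 19 reads). Of 34 genes of glioma receptor and PI3K signalling, 7 did, with 9 of 330 regions (2.73%, 1.44 to 5.10), led by the receptor NTRK3 (4.85), NF1, a brake on RAS (3.92), and IGF1R (3.47). Of 30 long neuronal genes, 16 did, with 47 of 950 regions (4.95%, 3.74 to 6.52). ROBO1, an axon guidance receptor, had the strongest (7.39, 31 reads), then CNTNAP2 (6.93, 29 reads) and RBFOX1, a splicing factor (6.46, 27 reads). Of 33 genes of the extracellular matrix and integrins, 14 did, with 20 of 441 regions (4.54%, 2.95 to 6.90), led by COL8A1 (5.77), LAMA1 (5.54) and ITGA2 (5.44).

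Of 30 genes of nucleic acid sensing and the interferon response, 1 held a combination-only region. It was OAS3, which senses double-stranded RNA (3.04, 16 reads), 1 of the list's 47 regions (2.13%, 0.377 to 11.1). Of 29 apoptosis genes, BMF (4.07), BID (3.69) and CFLAR (3.10) held one each, 3 of 105 regions (2.86%, 0.976 to 8.07). Of 25 genes of AP-1 and the early growth response, 4 did, with 5 of 62 regions (8.06%, 3.49 to 17.5), in ATF4, a stress factor (3.39, 58 reads), MAF (3.23), FOSL2 (2.40) and JUND. Apart from the replication genes, the intervals of all these lists include the share of all regions.

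The labelled cell type was checked against its markers, read as a peak at a gene end in every list. Of 15 glioma and astroglial markers 12 had one, and GFAP, AQP4 and SLC1A3 had no peak there in any list. Blood and microglia markers had 3 of 8, and PTPRC, AIF1 and P2RY12 were among those with no peak there in any list. Epithelium had 2 of 6, endothelium 1 of 5 and neurons 3 of 5. Of all 19974 protein-coding genes, 12806 had such a peak in every list, counted within 1000 bp. A peak at a marker is thus common among genes at large, and these small counts are a description.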

How the data were processed

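The submitters' processing notes name MACS2, Bowtie2, deepTools, Picard, SAMtools and Trim Galore 0.5.0, with hg38. The sources used here do not say in what order or with what options, whether an input control was used, or how 4 libraries became 1 list. Each deposited list gives a fold enrichment (a ratio over local background), −log10 p and −log10 q values, a score not used here, and the summit offset; the authors made all of these per peak. The members, gene lists and rules were chosen with earlier results of these data known.

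Reads at the summit and background were solved from the deposited fold, (reads + 1) / (background + 1), and the Poisson p. This step, the comparison at starts and the printed AP-1 sites were added after seeing the data. Functions were tested on simulated data. Genes (GRCh38.p14, no exons), promoters and microRNAs came from RefSeq tables. The promoter table as used holds no chromosome 8, and no start for some genes of other chromosomes. Positions are 1-based. Named were the 15 strongest regions, the 12 genes with most and the 8 with the highest share of at least 3, the 12 strongest gene ends, the 6 longest runs and densest windows, and up to 3 genes per list. Some items that these rules name are not reported here. Python 3.11.15, numpy 2.4.6, pandas 2.3.3, scipy 1.17.1 and matplotlib 3.10.9 were used.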

Additional observations from a re-analysis of the deposited data

How the results depend on the processing

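With 1 list per group, no replicate could be left out. No paired analysis was possible because the columns carry no replicate. The count of 8055 regions was 5808 with every list at a −log10 q of 5 or more, 3584 when the combination peak alone had to meet it, 7150 with lists of equal length, 8599 at 50% overlap, 7000 with no region of another list within 500 bp, 8099 over all sequences and 2468 with the reads' lower bound above the reads needed, a setting chosen after seeing the data. The shares that follow are in the order gene ends, gene bodies, between genes and starts, and those not listed stayed within the counting interval of the main value. They were 1.64% (ends) and 0.998% (starts) with a 500 bp window, and 6.29%, 41.6%, 52.1% and 3.72% with 2000 bp. With all genes of the table, ends were 7.57%, bodies 52.9%, between 39.5% and the median distance 11.9 kb. At a −log10 q of 5 or more, bodies were 46.8% and between 49.9%. With no region of another list within 500 bp, ends were 2.77% and starts 1.32%. With the reads' lower bound above the reads needed, bodies were 47.6%, between 48.9% and starts 2.13%. In the same order of filters (−log10 q, 500 bp, reads), the clustering ratio of 1.13 was 0.958, 1.29 and 0.814. The next region along the chromosome, looking 1 way only, was in the set for 4.97%. By another measure, which looks both ways, a combination-only region lay within 10 kb of 10.0%, within 50 kb of 37.0% and within 100 kb of 57.3%. Host genes numbered 1509, 2469 and 1105 under the 3 filters, and promoters with TGANTCA 11.5%, 18.0% and 10.3%; fewer regions pass each filter. Gene ends stayed between 88 and 125. Depth limits what absence from a list shows. This holds for the 2468 regions too. They were picked by their reads in the combination list, and the number needed was worked out from the background of that list. The true background of the other lists at these sites is not known.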
